A study of Ovis aries with 6 samples.

Results

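Cholesterol synthesis and sterol regulation were examined in skin from a pair of sheep breeds, the Super Merino (SM), which grows fine wool, and the Small Tail Han (STH), whose wool is coarse. The genes were taken from a fixed list of 31 genes of the mevalonate pathway, sterol synthesis and sterol regulation. Of these, 29 were found by their symbol among the 28394 genes of the files. IDI1 and CYP51A1 were not found under those symbols, and CYP51A1 was not analysed here. Skin behind the shoulder blade was sampled from 3 SM and 3 STH sheep, all labelled as 9 months old, whereas the methods of the study give a younger age. The sheep are untreated ewes that were kept on the same farm and fed alike, and 1 RNA library was made from each. They are called SM1, SM2 and SM3 (labelled 128, 30034 and 30126) and STH1, STH2 and STH3 (labelled XW3, XW5 and XW8). Whole skin holds epidermis, wool follicles, sebaceous and sweat glands, dermis, fat and muscle, so that fewer cells of a type and less RNA per cell cannot be told apart.

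Cholesterol is built from acetyl-CoA. Acetyl-CoA units are joined to give mevalonate, mevalonate is turned into isoprenoid units and then squalene, and squalene is closed to lanosterol and trimmed to cholesterol. The pathway is switched on by SREBP transcription factors, which are held in the endoplasmic reticulum by SCAP and INSIG proteins when sterols are plentiful, and are cut loose by a pair of proteases when sterols are scarce. In sheep skin the pathway matters because the sebaceous glands secrete lanolin, a wax rich in esters of cholesterol and lanosterol.

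Total counts ranged from 28870583 to 44645091 per sheep, and the 29 genes had between 136 and 25009 counts in each sheep, so that all of them passed the filter on low counts. Levels compared between breeds are CPM, counts scaled to a common library size after TMM normalization, and levels compared between genes are the deposited RPKM, which are per length of the gene. Log2 fold changes are SM over STH, and SE is their standard error. SM3 had the highest CPM of the 6 sheep in 33.4% of all genes tested and STH2 in 23.3%. The share of each library's fragments that fell into the gene counts, relative to the mean over libraries, was highest in SM3, at 1.111, and lowest in SM1, at 0.941.

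The genes of cholesterol synthesis and its regulation differed by less than 2-fold between the breeds, and no single gene among them passed the test. Of the 29 genes, 23 had a positive log2 fold change, as had 51.4% of all genes tested, and 6 a negative one, with a median of 0.29 beside 0.018 over all genes tested. The values ran from -0.66 for MBTPS2 to 0.75 for SOAT1. In 12 genes the lowest SM sheep was above the highest STH sheep, which held for 12.3% of all genes tested. In 5 genes the highest SM sheep was below the lowest STH sheep, which held for 13.3%. In the other 12 the breeds overlapped.

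No gene passed both thresholds, an adjusted p (Benjamini-Hochberg) under 0.05 and a difference of over 1.5-fold, in edgeR's quasi-likelihood test. That was so for 0 of the 29 genes and for 0% of the 15320 genes tested. The smallest adjusted p among the 29 was 0.205, for SQLE. At an unadjusted p under 0.05 there were 11 of the 29 with higher levels in SM sheep, against 7.21% of all genes tested, and 3 with lower levels, against 10.8%. These 14 genes had adjusted p between 0.205 and 0.270. Of all genes at that unadjusted p, 40.0% were higher in SM sheep, and this share was 50.6% with upper quartile normalization and 52.7% after removal of a trend on gene length. The counts of 11 and 3 were unchanged with the former and were 13 and 3 with the latter.

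SQLE and LSS passed both thresholds in other tests. With edgeR's likelihood ratio test their adjusted p were 0.0189 and 0.0416, and with DESeq2 they were 0.00800 and 0.0271. They were the 2 of 29 genes called higher in SM sheep, where the likelihood ratio test called 0.868% of all genes higher and DESeq2 1.02%. Neither test called any of the 29 lower in SM sheep, where they called 1.43% and 1.85% of all genes. Without SM1, the quasi-likelihood test called ACAT2, MVD and SQLE higher and INSIG2 and MBTPS2 lower in SM sheep, with adjusted p of 0.0417, 0.0420, 0.0198, 0.0433 and 0.0220. With that sheep left out, 1.3% of all genes were called higher and 6.29% lower, so that the 2 of 29 lower calls were close to the share over all genes. SQLE is the one gene of the 29 that the study itself had listed as different between these sheep, so it is not independent of them.

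**Figure D1:**
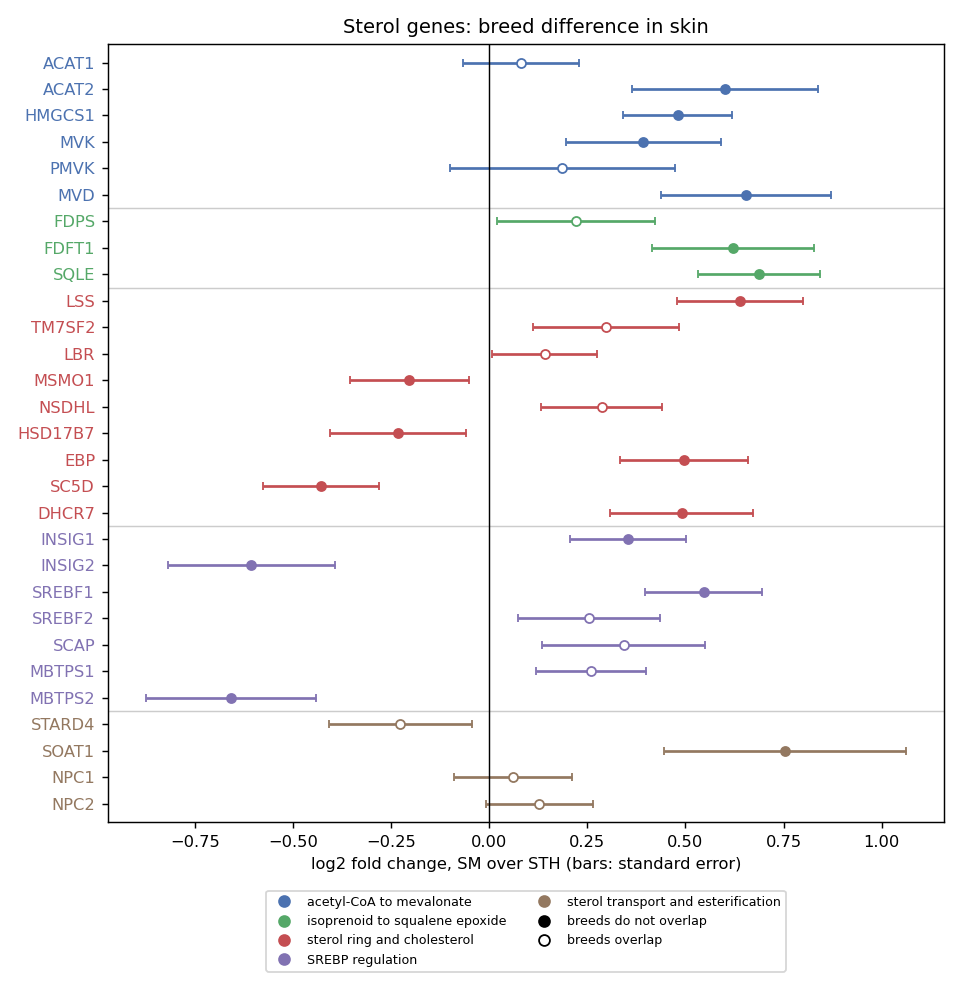
Log2 fold change of each of the 29 genes (x axis, SM over STH, 3 sheep per breed) with its standard error as a bar, grouped by role. Filled points mark the 17 genes whose breeds do not overlap and open points the 12 whose breeds overlap. The genes from ACAT1 to SQLE in the order of the pathway lie to the right of 0, whereas MSMO1, HSD17B7, SC5D, INSIG2, MBTPS2 and STARD4 lie to the left.

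The steps from acetyl-CoA to mevalonate and its activation were all on the SM side. All 6 genes had positive log2 fold changes, as had 51.4% of all genes tested, with a median of 0.44. In 4 of the 6 all SM sheep were above the STH sheep, against 12.3% of all genes tested. PMVK became -0.096 without SM3 and ACAT1 -0.0062 without STH3. HMGCS1 (chromosome 16, 31409821 to 31433166, plus strand of Oar_v4.0) makes HMG-CoA and had the highest level of the 29 genes, at a mean of 89.9 RPKM. It had 482, 554 and 539 CPM in SM1, SM2 and SM3, against 385, 350.0 and 393 in STH1, STH2 and STH3. The lowest SM sheep was therefore above the highest STH sheep, with a log2 fold change of 0.48 (SE 0.14, adjusted p = 0.247). HMGCS1 kept a log2 fold change of 0.43 to 0.54 as each sheep was left out. With DESeq2 its adjusted p was 0.0398, but the difference was under 1.5-fold.

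MVD, which decarboxylates mevalonate diphosphate to the isoprenoid building block, had 57.9, 70.4 and 98.7 CPM in SM1, SM2 and SM3, against 55.6, 40.5 and 48.1 in STH1, STH2 and STH3. Here SM1 was close to STH1 and SM3 stood far above the rest, with a log2 fold change of 0.65 (SE 0.22, adjusted p = 0.247). ACAT2, the cytosolic thiolase that joins acetyl-CoA units, had 62.7, 80.3 and 126 CPM in SM1, SM2 and SM3, against 58.4, 58.8 and 60.6 in STH1, STH2 and STH3. The STH sheep were nearly level and SM1 lay just above them, with a log2 fold change of 0.60 (SE 0.24, adjusted p = 0.260). ACAT2 without SM3 had a log2 fold change of 0.29, the low end of its range. ACAT1, the mitochondrial thiolase that serves ketone body and amino acid metabolism, overlapped between breeds at 0.080 ± 0.15 (log2 fold change ± SE). MVK, mevalonate kinase, had 45.1, 47.0 and 72.2 CPM in SM1, SM2 and SM3, against 42.3, 38.9 and 44.0 in STH1, STH2 and STH3. It did not overlap, but the gap between SM1 and STH3 was small, at 0.39 ± 0.20 and an unadjusted p of 0.0803. Without SM3 the log2 fold change of MVK was 0.16, and that of MVD was 0.43. PMVK, phosphomevalonate kinase, was low, at a mean of 2.33 RPKM and between 136 and 341 counts, and overlapped at 0.19 ± 0.29.

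Farnesyl diphosphate and squalene synthesis followed the same direction. FDPS, which builds farnesyl diphosphate, had a log2 fold change of 0.22 ± 0.20 (SE) and overlapped, since STH1 was above SM1 and SM2. FDFT1, squalene synthase, is the step that commits the pathway to sterols. It had 110.0, 117 and 161 CPM in SM1, SM2 and SM3, against 68.0, 80.8 and 104 in STH1, STH2 and STH3. SM1 was just above STH3 and SM3 was highest, with a log2 fold change of 0.62 (SE 0.21, adjusted p = 0.247). SQLE, squalene epoxidase, adds the oxygen needed for ring closure and is a control point of the pathway (chromosome 9, 27905527 to 27927180, minus strand). It had 208, 269.9 and 275 CPM in SM1, SM2 and SM3, against 165, 159 and 144 in STH1, STH2 and STH3. The breeds were well apart, with a log2 fold change of 0.69 (SE 0.16, adjusted p = 0.205), and the value stayed at 0.62 to 0.81 as each sheep was left out. By level SQLE was second among the 29 genes, at a mean of 67.9 RPKM.

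IDI1, which interconverts the isoprenoid building blocks, was absent by symbol but its gene ID in the RefSeq gene table is that of LOC101108851 in the files. This gene is not counted among the 29. It had 213, 243 and 237 CPM in SM1, SM2 and SM3, against 187, 206 and 216 in STH1, STH2 and STH3. SM1 lay below STH3, so the breeds overlapped, with a log2 fold change of 0.19 (SE 0.14, adjusted p = 0.436).

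The ring-forming and trimming steps were divided. Of the 9 genes found, 6 were higher and 3 lower in SM sheep, and the median log2 fold change was 0.29. In 3 genes all SM sheep were above, and in another 3 all SM sheep were below, the STH sheep. Of all genes tested, 12.3% were above and 13.3% below in this way. At an unadjusted p under 0.05 there were 3 higher, against 7.21% of all genes tested. Only 1, SC5D, was lower at that p, against 10.8%. LSS, lanosterol synthase, closes the ring (chromosome 1, 263836789 to 263868476, minus strand). It had 133, 119 and 167 CPM in SM1, SM2 and SM3, against 83.9, 90.1 and 95.0 in STH1, STH2 and STH3. All SM sheep were clear of the STH sheep, with a log2 fold change of 0.64 (SE 0.16, adjusted p = 0.234), and from 0.50 to 0.73 as each sheep was left out. EBP, the isomerase that moves the ring double bond, had 81.0, 100.2 and 110.3 CPM in SM1, SM2 and SM3, against 64.0, 64.1 and 78.7 in STH1, STH2 and STH3. SM1 was only a little above STH3, with a log2 fold change of 0.50 (SE 0.16, adjusted p = 0.247). DHCR7, the reductase of the last steps, had 201, 221 and 312 CPM in SM1, SM2 and SM3, against 169.5, 174 and 179 in STH1, STH2 and STH3. SM3 was highest and SM1 was nearest to the STH sheep, with a log2 fold change of 0.49 (SE 0.18, adjusted p = 0.256). Without SM3 the log2 fold change of DHCR7 was 0.29.

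SC5D, MSMO1 and HSD17B7, which act between LSS and DHCR7, had negative log2 fold changes. SC5D introduces a ring double bond late in synthesis and had 129, 114 and 99.4 CPM in SM1, SM2 and SM3, against 146, 166 and 148 in STH1, STH2 and STH3. SM sheep were lower throughout, with a log2 fold change of -0.43 (SE 0.15, adjusted p = 0.250). MSMO1, the oxidase that starts removal of the methyl groups of lanosterol, had 146, 146 and 109.6 CPM in SM1, SM2 and SM3, against 157, 154 and 152 in STH1, STH2 and STH3. The STH sheep and SM1 and SM2 lay close together and SM3 stood below, with a log2 fold change of -0.20 (SE 0.15, adjusted p = 0.455). Without SM3 the log2 fold change of MSMO1 was -0.063. HSD17B7, a ketosteroid reductase of the same demethylation, was the lowest of the 29 genes by level, at a mean of 1.497 RPKM, and had 15.9, 14.1 and 11.5 CPM in SM1, SM2 and SM3, against 16.2, 16.04 and 16.6 in STH1, STH2 and STH3. Its log2 fold change was -0.23 ± 0.17 (SE), with an unadjusted p of 0.214, and became -0.10 without SM3 and -0.019 after removal of the length trend. NSDHL, the dehydrogenase that works between MSMO1 and HSD17B7, was on the SM side at 0.29 ± 0.15, with overlap. TM7SF2 and LBR both act as sterol reductases on the same double bond, and had log2 fold changes of 0.30 ± 0.19 and 0.14 ± 0.13, with overlap.

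**Figure D2:**
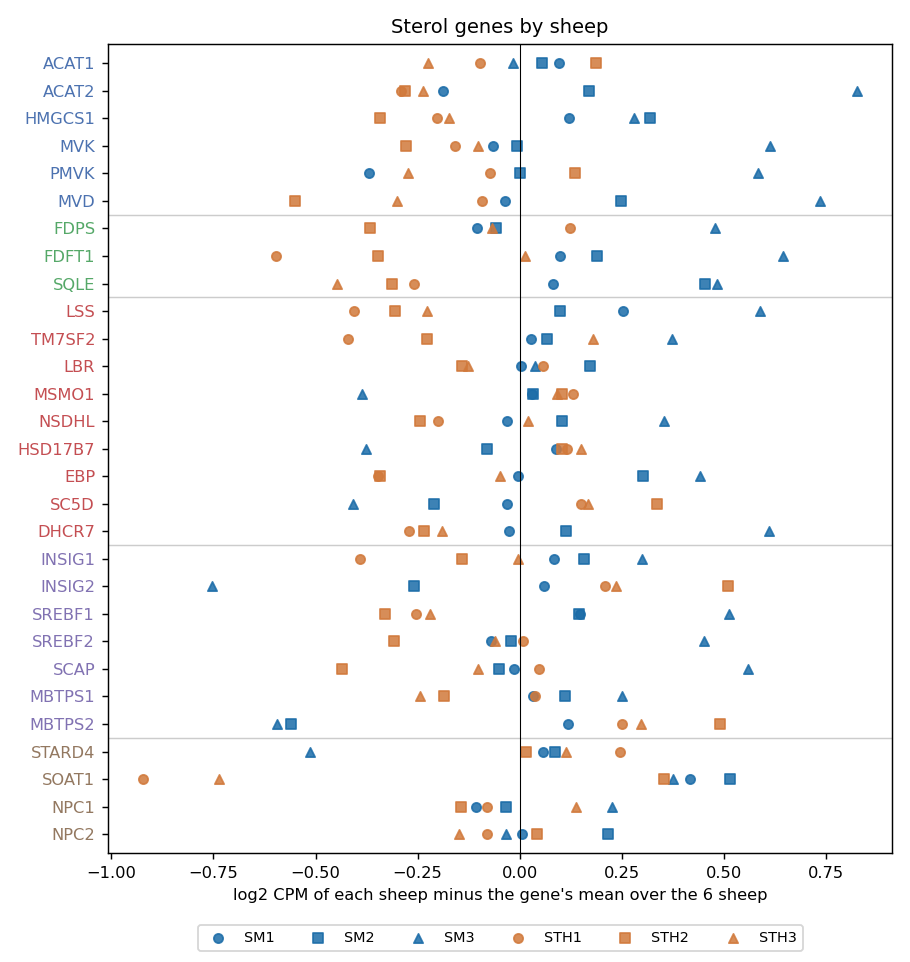
Level of each of the 29 genes in each sheep, as log2 CPM minus the mean of that gene over the 6 sheep (x axis), with SM sheep in blue and STH sheep in orange. SM3 (blue triangles) is the farthest right in 18 genes and the farthest left in 6. The SM and STH points of HMGCS1, SQLE, LSS and SREBF1 are separate.

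Ratios within a sheep restate this split and need no scaling between libraries. SQLE over MSMO1 in RPKM was 1.41, 1.83 and 2.49 in SM1, SM2 and SM3, against 1.04, 1.02 and 0.939 in STH1, STH2 and STH3. The ratio was higher in every SM sheep. LSS over SC5D was 0.645, 0.657 and 1.056 in SM1, SM2 and SM3, against 0.360, 0.340 and 0.403 in STH1, STH2 and STH3, and again did not overlap. ACAT2 over ACAT1 was 0.839, 1.105 and 1.83 in SM1, SM2 and SM3, against 0.893, 0.739 and 1.01 in STH1, STH2 and STH3, which overlapped because SM1 lay below STH1 and STH3. SQLE and LSS lay above, and MSMO1 and SC5D below, in all SM sheep. That their ratios did not overlap follows from this and adds no support. All gene pairs, here and below, were picked after their values had been seen, and the ratios were not tested.

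The regulators went in both directions, and none passed the test. Of 7 genes, 5 had positive and 2 negative log2 fold changes. All SM sheep were above the STH sheep in 2 genes and below them in 2, against 12.3% and 13.3% of all genes tested. SREBF1 (chromosome 11, 34133695 to 34149654, plus strand) encodes the SREBP that mainly drives fatty acid synthesis and, as an isoform, also sterol genes. It had 102, 102 and 131 CPM in SM1, SM2 and SM3, against 77.3, 73.3 and 79.1 in STH1, STH2 and STH3. Levels were tight in STH sheep and higher in all SM sheep, with a log2 fold change of 0.55 (SE 0.15, adjusted p = 0.240). With DESeq2 the adjusted p of SREBF1 was 0.0480, again for a difference under 1.5-fold. SREBF2, the SREBP that mainly drives cholesterol genes, was the more abundant, at a mean of 41.8 RPKM against 16.01 for SREBF1. It had 289, 299 and 415 CPM in SM1, SM2 and SM3, against 305, 245 and 291 in STH1, STH2 and STH3. Apart from SM3 the sheep were alike, and the breeds overlapped at 0.25 ± 0.18. The ratio of SREBF1 to SREBF2 in RPKM was 0.441, 0.425 and 0.396 in SM1, SM2 and SM3, against 0.317, 0.373 and 0.339 in STH1, STH2 and STH3, without overlap.

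INSIG1 and INSIG2 hold the SREBP and SCAP complex in the endoplasmic reticulum. INSIG1 is itself a target of SREBP and had 79.1, 83.1 and 91.8 CPM in SM1, SM2 and SM3, against 56.9, 67.7 and 74.3 in STH1, STH2 and STH3. SM1 was a little above STH3, with a log2 fold change of 0.35 (SE 0.15, adjusted p = 0.270). INSIG2 (chromosome 2, 182252612 to 182274775, plus strand) had 42.2, 33.9 and 24.0 CPM in SM1, SM2 and SM3, against 46.8, 57.7 and 47.6 in STH1, STH2 and STH3. All SM sheep were lower, SM1 nearest to the STH sheep, with a log2 fold change of -0.61 (SE 0.21, adjusted p = 0.252). Without SM3 the log2 fold change of INSIG2 was -0.40. The ratio of INSIG1 to INSIG2 in RPKM was 1.98, 2.59 and 4.03 in SM1, SM2 and SM3, against 1.28, 1.24 and 1.64 in STH1, STH2 and STH3. It was higher in each SM sheep than in any STH sheep. That follows from INSIG1 being above and INSIG2 below in all SM sheep, and adds nothing to those values.

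Of the proteases that release SREBP, one overlapped between breeds and the other did not. MBTPS1, which makes the first of the cuts, had a log2 fold change of 0.26 ± 0.14 (SE), and STH1 lay above SM1 by a small margin. MBTPS2 (chromosome X, 19075486 to 19125359, plus strand), which cuts within the membrane, had 23.0, 14.4 and 14.04 CPM in SM1, SM2 and SM3, against 25.2, 29.8 and 26.01 in STH1, STH2 and STH3. SM2 and SM3 were well below and SM1 just below the STH sheep, with a log2 fold change of -0.66 (SE 0.22, adjusted p = 0.247). The ratio of MBTPS1 to MBTPS2 in RPKM was 2.51, 4.24 and 4.78 in SM1, SM2 and SM3, against 2.30, 1.67 and 1.83 in STH1, STH2 and STH3, with no overlap. SCAP, the sterol sensor that escorts SREBP, overlapped at 0.34 ± 0.21, with 74.2 CPM in SM3 against 48.7 to 49.9 in the other SM sheep.

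**Figure D3:**
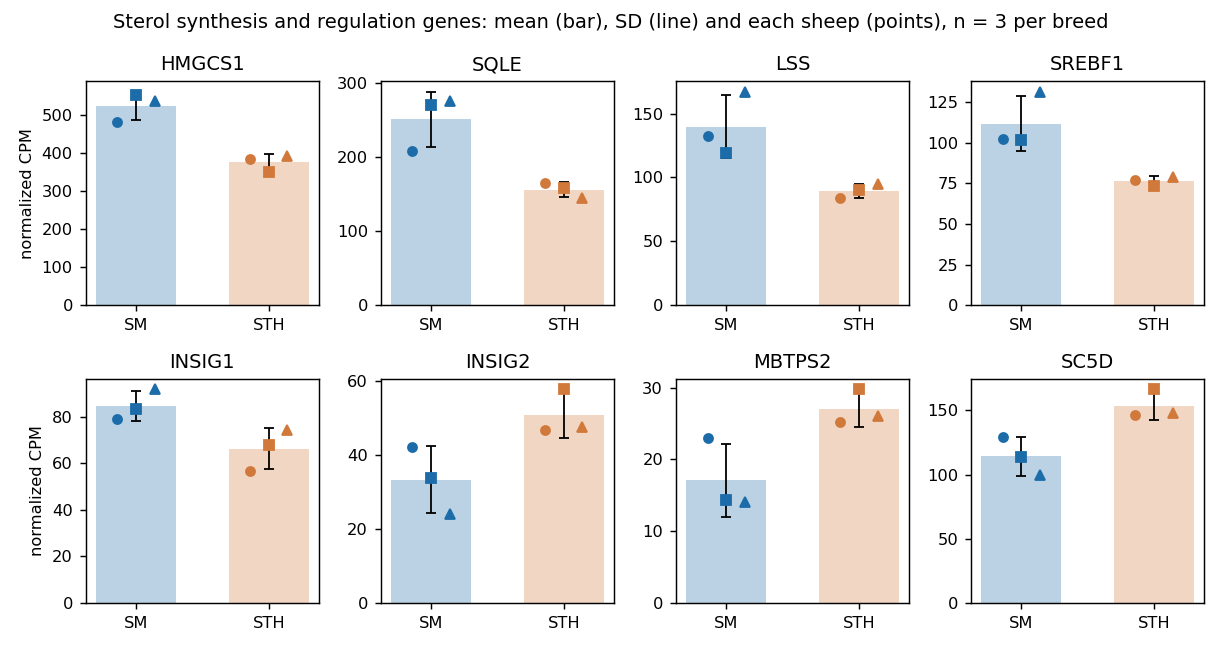
Normalized CPM (y axis, from 0) of 8 genes of synthesis and regulation by breed. Bars are means of 3 sheep, lines the SD, and points each sheep (circle, square and triangle for sheep 1, 2 and 3 of a breed). HMGCS1, SQLE, LSS, SREBF1 and INSIG1 are higher, and INSIG2, MBTPS2 and SC5D lower, in all SM sheep.

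Across these groups, leaving out sheep altered how many genes had an unadjusted p under 0.05. On the higher side there were 5 without STH1, 6 without STH2 and 13 without SM1, and between 8 and 9 without each of the other sheep. Over all 15320 genes tested the higher side also changed, from 1104 with all sheep to 910 without STH1, 472 without STH2 and 1939 without SM1. It was 700 to 741 without each of the other sheep. On the lower side there were 0 of the 29 without SM2 and 0 without STH2. Over all genes tested the lower side was 930 without SM2 and 661 without STH2, against 1658 with all sheep. The median of the 29 genes was 0.37 without SM1 and 0.19 without SM3. With the counted share of each library as a covariate it was 0.18, and 10 higher and 3 lower genes had an unadjusted p under 0.05. Over all genes tested these were 858 and 1609.

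Among 4 genes of sterol transport and storage, 3 overlapped between breeds and SOAT1 did not, by a narrow margin. Its lowest SM sheep was at 1.015 times STH2. Of all genes tested, 12.3% had all SM sheep above the STH sheep. SOAT1 (chromosome 12, 58622673 to 58689176, plus strand) is the acyltransferase that turns cholesterol into cholesterol esters, and had a mean of 38.6 RPKM. It had 409, 438 and 397 CPM in SM1, SM2 and SM3, against 162, 392 and 184 in STH1, STH2 and STH3. STH2 was level with the SM sheep, at 2.42 times STH1 and 2.13 times STH3, so that the STH sheep were split. The means were 415 ± 20.9 CPM in the SM and 246 ± 127 CPM in the STH breed (mean ± SD over 3 sheep), with a log2 fold change of 0.75 (SE 0.31, adjusted p = 0.265). Without STH2 the log2 fold change of SOAT1 was 1.26, and it was 0.53 without STH1. Of the 15320 genes tested, 162 had STH2 at least 2-fold above both other STH sheep, and SOAT1 was the one such gene among the 29.

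STARD4 carries cholesterol between membranes, and NPC1 and NPC2 release it from lysosomes. All 3 overlapped between breeds. STARD4 had 58.8, 59.9 and 39.6 CPM in SM1, SM2 and SM3, against 66.9, 57.1 and 61.0 in STH1, STH2 and STH3, with a log2 fold change of -0.23 ± 0.18 (SE). SM3 was the lowest sheep and the others were alike. NPC1 had a log2 fold change of 0.060 ± 0.15 (SE) and NPC2 of 0.13 ± 0.14. The ratio of NPC2 to NPC1 in RPKM overlapped, with 3.54, 3.89 and 2.73 in SM1, SM2 and SM3. It was 3.27, 3.72 and 2.685 in STH1, STH2 and STH3. NPC2 was the third of the 29 genes by level, at a mean of 53.3 RPKM. It had 106, 123 and 103 CPM in SM1, SM2 and SM3, against 99.9, 109 and 95.4 in STH1, STH2 and STH3, so that no sheep stood far from the others.

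**Figure D4:**
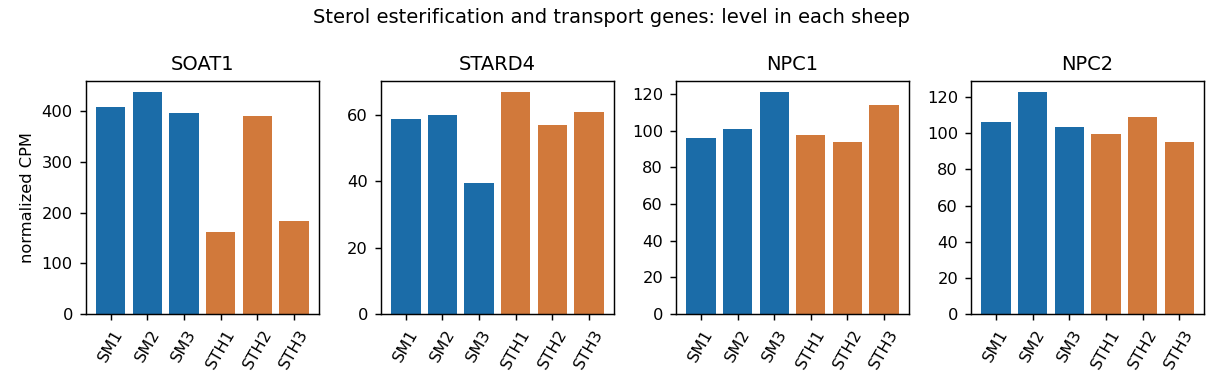
Normalized CPM (y axis, from 0) of SOAT1, STARD4, NPC1 and NPC2 in each sheep, SM in blue and STH in orange, 1 bar per sheep. SOAT1 is between 392 and 438 CPM in the SM sheep and STH2 but 162 and 184 in STH1 and STH3. The other genes overlap between breeds.

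The order of levels ran over a wide range. By mean RPKM over the 6 sheep, 12 of the 29 genes were at 30 or more and 4 were under 5, with a median of 26.4. After HMGCS1, SQLE and NPC2 came MSMO1 at 48.2, SREBF2 at 41.8 and EBP at 41.2 RPKM. At the low end were STARD4 at 4.16, MBTPS2 at 3.23, PMVK at 2.33 and HSD17B7 at 1.497 RPKM.

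Single sheep contributed unequally. SM3 was the highest sheep in 18 of the 29 genes, or 62.1%, against 33.4% of all genes tested. In the marker lists given below this share ran from 0% to 100%. It was 100% in the wool shaft markers and 91.7% in the sebaceous gland markers, and 0% in the fibroblast markers and both lists of epidermis markers. In 10 of the 12 genes with all SM sheep above, SM3 was the highest, and in 9 of the 12 SM1 was the lowest SM sheep. In all 5 genes with the SM sheep below, SM3 was the lowest. SM3 was also the sheep with the highest counted share and SM1 that with the lowest, and their part in these values was not tested beyond the covariate.

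Outside the 29 genes, 38 other genes of isoprenoid use and sterol handling were listed and 34 were found and tested. They had a median of 0.21 on the log2 scale, and none passed both thresholds, whether by DESeq2 or by either edgeR test. At an unadjusted p under 0.05 there were 4 of the 34 higher and 5 lower in SM sheep, near the 7.21% and 10.8% of all genes tested, and these 9 are given here as values only. Among genes that use isoprenoids, GGPS1, NUS1 and PGGT1B had -0.52 ± 0.21, -0.40 ± 0.15 and -0.50 ± 0.16 (log2 fold change ± SE). GGPS1 makes geranylgeranyl diphosphate, NUS1 is a subunit of the dolichol-forming transferase, and PGGT1B attaches geranylgeranyl groups to proteins. FNTB, the beta subunit of protein farnesyltransferase, had 0.41 ± 0.17. The adjusted p of these 4 were between 0.247 and 0.269 in edgeR's quasi-likelihood test.

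Of the sterol handling genes, SCARB1, the receptor for selective uptake of cholesteryl esters, had 179.6 ± 25.1 CPM in the SM and 122 ± 3.04 CPM in the STH breed (mean ± SD over 3 sheep). This was a log2 fold change of 0.55 (SE 0.15, adjusted p = 0.240). MYLIP, an E3 ligase controlled by sterol-sensing receptors, had 0.49 ± 0.15, and LIPA, the lysosomal cholesteryl ester hydrolase, 0.36 ± 0.14. These 3 did not overlap between breeds. NCEH1, a neutral cholesteryl ester hydrolase, and GRAMD1C, a sterol transfer protein, had negative values of -0.69 ± 0.28 and -0.71 ± 0.30, also without overlap. With DESeq2 the adjusted p of SCARB1 was 0.0359, but the difference was under 1.5-fold.

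Marker genes of the sebaceous gland were also at higher levels in SM sheep. Of 14 listed, 12 were tested, and all 12 had positive log2 fold changes, with a median of 0.99. An unadjusted p under 0.05 was reached by 8 of them, against 7.21% of all genes tested on the higher side. SOAT2 and PLIN5 did not reach the minimum count. The study had named 6 of the 14 from these same libraries, so their direction is not independent. In 6 of the 12 all SM sheep were above the STH sheep, against 12.3% of all genes tested. The quasi-likelihood test called 0 of the 12, the likelihood ratio test 5 and DESeq2 6. Over all genes tested, the likelihood ratio test called 0.868% higher and DESeq2 1.02%. DGAT2L6, an acyltransferase of wax and triglyceride synthesis, had 36.9, 23.6 and 49.0 CPM in SM1, SM2 and SM3, against 6.19, 8.43 and 6.35 in STH1, STH2 and STH3, which gave a log2 fold change of 2.38 (SE 0.28, adjusted p = 0.0853). KRT79, a keratin of the sebaceous duct, had a log2 fold change of 0.98 ± 0.18 (SE), and FA2H, a fatty acid hydroxylase, one of 0.99 ± 0.23. The values were 1.064 ± 0.26 for the fatty acid elongase ELOVL3, 1.13 ± 0.31 for the lipid droplet protein CIDEA and 1.29 ± 0.41 for the wax synthase AWAT1, which overlapped between breeds. The summed level of the 14 genes was 2674, 2515 and 3455 CPM in SM1, SM2 and SM3, against 1383, 1974 and 1741 in STH1, STH2 and STH3. The SM sheep were above the STH sheep throughout.

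The summed level of the 18 synthesis enzymes was 2067, 2267 and 2570.0 CPM in SM1, SM2 and SM3, against 1790.0, 1748 and 1852 in STH1, STH2 and STH3, also without overlap. Divided by the sebaceous sum of the same sheep, it was 0.773, 0.901 and 0.744 in SM1, SM2 and SM3, against 1.29, 0.885 and 1.064 in STH1, STH2 and STH3. On that scale the SM sheep were not higher, and SM2 and STH2 were nearly equal. The divisor was itself higher in all SM sheep and includes the 6 markers that the study had named from these libraries. Lower ratios in SM sheep are therefore partly built in. The part of sebaceous gland content in the breed difference was not tested.

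**Figure D5:**
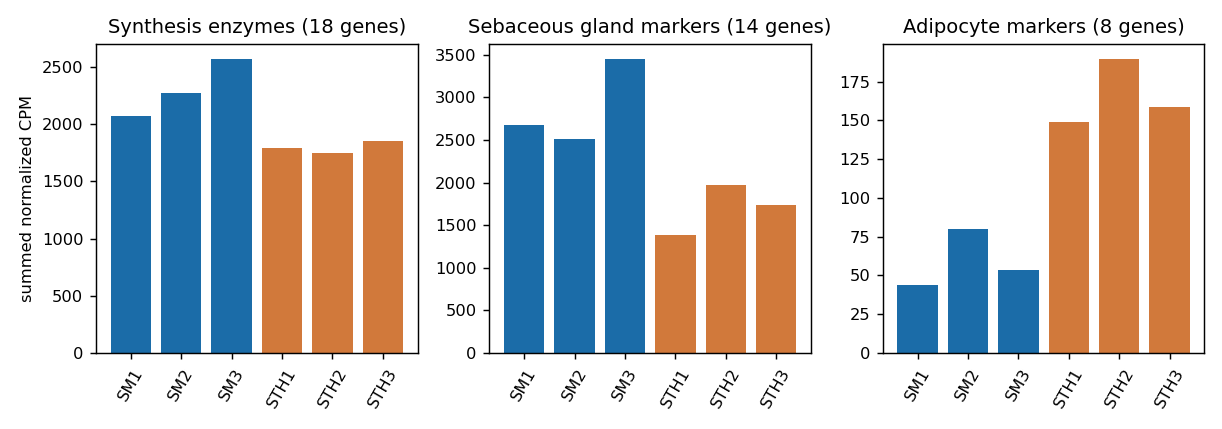
Summed normalized CPM (y axis, from 0) of 18 cholesterol synthesis enzymes, 14 sebaceous gland markers and 8 adipocyte markers in each sheep, SM in blue and STH in orange. The first and second sums are higher, and the third lower, in all SM sheep.

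Other cell markers differed as well. The summed adipocyte markers were 44.1, 79.8 and 53.4 CPM in SM1, SM2 and SM3, against 149, 189.7 and 159 in STH1, STH2 and STH3. Most of this sum was FABP4, a fatty acid carrier, with 40.0 ± 19.6 CPM in the SM and 144 ± 21.9 CPM in the STH breed (mean ± SD over 3 sheep). FABP4 had a log2 fold change of -1.84 (SE 0.31, adjusted p = 0.159) and LPL, lipoprotein lipase, -0.96 ± 0.38, while LEP was under the minimum count. Of the 7 adipocyte markers tested 4 had negative and 3 positive values, with a median of -0.29. The positive ones were ADIG at 0.43 ± 0.24, without overlap, and CIDEC and PLIN1 at 0.40 ± 0.42 and 0.14 ± 0.47, with overlap. The likelihood ratio test and DESeq2 each called 1 adipocyte marker lower in SM sheep. Of the 7 smooth muscle markers found, MYH11, DES, ACTG2, CNN1 and ACTA2 were lower in SM sheep at an unadjusted p under 0.05, while SMTN had -0.12 ± 0.13 and TAGLN -0.0089 ± 0.17. Their median was -0.65, and 4 were called lower by the likelihood ratio test and 4 by DESeq2. The summed smooth muscle markers were 1205 to 1431 CPM in SM and 1863 to 2355 in STH sheep. The 6 spinous and granular epidermis markers found, of 8 listed, had negative values, with a median of -0.99, and 4 were called lower by each of these tests. Their sums were 2435 to 2706 CPM in SM and 3295 to 6985 CPM in STH sheep. Among them IVL, KRT10, DSC1, KRT1 and CASP14 were at an unadjusted p under 0.05. Over all genes tested, the likelihood ratio test called 1.43% lower and DESeq2 1.85%, and 10.8% were lower at an unadjusted p under 0.05. The study had already listed MYH11, DES, ACTG2, FABP4, IVL, KRT1, KRT10 and CASP14 as lower in SM sheep from these same libraries. Their direction is therefore not independent.

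The median was -0.18 for 5 basal epidermis and outer root sheath markers, whose sums of 6933 to 8283 CPM in SM and 8072 to 10890.0 in STH sheep overlapped. It was 0.44 for the 6 wool shaft markers found of 13 listed, and those not found were keratin genes. The median was -0.18 for 6 fibroblast markers, 0.091 for 8 immune cell markers and 0.40 for 5 endothelial markers. In these lists KRT36, CD3E, CD3D, VWF and CDH5 were higher and DCN lower in SM sheep at an unadjusted p under 0.05. Of all genes tested, 7.21% were higher and 10.8% lower at that p. The study had already listed KRT36 as higher in SM sheep from these same libraries, so its direction is not independent. KRT14 was not analysed here, and KRT5 and COL1A1, which mark epidermis and dermis, were detected in every sheep. The part of these cell types in the values of the sterol genes was not tested.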

How the data were processed

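The authors sequenced 1 paired-end polyA library per sheep and mapped it to the assembly Oar_v4.0 in CLC Genomics Workbench under default parameters, without pooling. FastQC is named in the submitters' processing notes. The total counts deposited by the authors are whole numbers without normalization, and which read classes they hold is not given in the sources used here. The RPKM deposited by the authors are per exon length and library size. The deposited TPM and the deposited score headed CPM are rescaled forms of these and were not used.

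Genes reaching 10 counts in 3 or more sheep (15320) were tested by edgeR 4.0.16 in R 4.3.3 (TMM, quasi-likelihood test, breed as the only term), with Benjamini-Hochberg adjustment over all of them. A gene was called at an adjusted p under 0.05 and over 1.5-fold. SE is the size of a log2 fold change over the square root of F. A floor of 3 counts was 0.0672 to 0.104 CPM, for counting error only. Groups came from the strain labels. Alternatives were the likelihood ratio test, DESeq2 1.42.0, the newer dispersion estimate, other filters and normalizations, the counted share of each library (total counts over the relative library size implied by counts and RPKM) as a covariate, removal of a loess trend on gene length (span 0.5), and each sheep left out. The procedure was tested on simulated data.

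The genes, lists and tests were chosen with earlier results of these data known. All 29 genes are named, with the value of every sheep where the breeds did not overlap, the unadjusted p was under 0.05 or the level was among the 3 highest. SREBF2, STARD4 and IDI1 were added after their values were seen. Of the other lists, genes with an unadjusted p under 0.05 are named, at most 6 per list. Gene IDs were matched to the RefSeq gene table of ARS-UI_Ramb_v3.0, in which all 29 carry the same symbol, and coordinates are those of the files. Sequences were not analysed here.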

Additional observations from a re-analysis of the deposited data

How the results depend on the processing

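No paired analysis was possible because the labels number no SM sheep together with an STH sheep. Of 435 values of single genes under the 15 alternatives, 420 kept their direction and stayed on the same side of the thresholds, 9 were newly called and 6 changed sign. The sign changes were PMVK at -0.12 and NPC1 at -0.025 with the counted share as covariate, STARD4 at 0.029 with the length trend removed, PMVK at -0.096 and NPC1 at -0.032 without SM3, and ACAT1 at -0.0062 without STH3. The cause of these changes was not tested. As each sheep was left out, PMVK lay between -0.096 and 0.38, NPC1 between -0.032 and 0.15 and ACAT1 between -0.0062 and 0.21. The 25 other genes kept their direction under all 15 alternatives. Genes called higher and lower in SM sheep over the whole table, 0 and 0 in the quasi-likelihood test, were 156 and 283 with DESeq2, 133 and 219 with the likelihood ratio test, 0 and 2 with the newer dispersion estimate, 1 and 1 without a count filter, and 2 and 6 with the length trend removed. As each sheep was left out they were 0 to 199 and 0 to 964, with both maxima without SM1. Of the 29 genes, DESeq2 and the likelihood ratio test called 2 higher, and leaving out sheep gave 0 to 3 higher and 0 to 2 lower. The median log2 fold change of the 29 genes was 0.18 with the counted share as covariate and 0.37 with the length trend removed, and 0.19 to 0.37 as each sheep was left out. For the other sterol and isoprenoid genes it was 0.11 with the covariate and 0.11 to 0.28 with sheep left out. Genes of the 29 at an unadjusted p under 0.05 were 5 to 13 higher and 0 to 3 lower, and other sterol and isoprenoid genes 3 to 12, as each sheep was left out. Over all genes tested there were 472 to 1939 higher and 661 to 2682 lower. The 12 and 5 genes whose breeds did not overlap were 13 to 15 and 4 to 6 with 1 sheep fewer. At fixed values fewer sheep make overlap rarer, but normalization was redone each time. The lower count fell to 4 without SM2 and without SM3. Each of the 29 genes had at least 136 counts in each sheep, and what limits the number of calls was not tested.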
